A study of Mus musculus with 8 samples.

Results

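Glycolysis, the pentose phosphate pathway and the response to low oxygen were described across 38 named genes in spleen cells of leukemic mice. The genes were chosen by name, and each was represented by the probe set with the highest mean over the 8 arrays among those that carry its symbol in the platform annotation. Of the 38, 34 were found. Of the 18193 genes with such a probe set, 33 were members, and Gapdh was covered by hybridisation control probe sets alone, which stayed outside the tests. Gpi1, Eno1, G6pdx and Bnip3l were not analysed here, and the probe sets of Bnip3l also name a pseudogene.

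Mice called truncated here expressed CBFb-SMMHCd179-221, a leukemia fusion with an internal deletion, and spleens were taken 3 weeks after birth, with no mutagen named in the labels. The mice set against them expressed the full-length fusion, CBFb-SMMHC, and their spleens were taken 2 months after ENU, a chemical mutagen, with no age given. The fusion joins CBFb, the partner subunit of the transcription factor RUNX1, to the rod of a smooth muscle myosin, and the study's title calls the truncated form defective in high-affinity binding of RUNX1. Genotype, mutagen and age went together, so their parts in any difference cannot be told apart. The labels call both genotypes chimeras while the series text calls the full-length mice knock-in, so the share of spleen cells that carried either fusion is not known here. By the labels, animal 1 of each genotype was hybridised to 1 array and animal 2 to 3 arrays, which makes 2 animals and 4 arrays per genotype. Normal spleen was not among the samples.

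Glycolysis splits glucose into pyruvate in the cytosol, and the pentose phosphate pathway branches off glucose 6-phosphate to make NADPH and the ribose of nucleotides. When oxygen is scarce, the prolyl hydroxylases of the Egln family no longer mark HIF-1alpha for destruction, and HIF-1 then raises transcription of glucose transporters, glycolytic enzymes and lactate export. Red cell precursors, dividing blasts and neutrophils all lean on glycolysis but use different isoenzymes, and phagocytes use NADPH for the oxidative burst.

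Before the results, the arrays were compared with their labels. In truncated animal 2, array 1 correlated at 0.987 with the array of animal 1 and at 0.976 with arrays 2 and 3 of its own animal, over all probe sets. In full-length animal 2 the same values were 0.989 with animal 1 and 0.954 with arrays 2 and 3. Array 1 of animal 2 thus stood closer to the other animal than to its own, in both genotypes. Every animal mean, SD, n and p-value below takes the animal numbers from the labels. With arrays grouped as they correlate (animal 1 with array 1 of animal 2, and arrays 2 and 3 of animal 2), a grouping chosen after the data were seen, 0 genes passed, 2 of 33 members had an unadjusted p under 0.05, and the adjusted p in limma was 0.502 for Pgd and 0.551 for Pfkfb4. The share of all genes at that unadjusted threshold is not given for this grouping. The pan-leukocyte gene Ptprc (CD45) had log2 expression of 10.30, 10.59, 10.77 and 10.76 in truncated arrays and 8.75, 8.35, 9.55 and 9.58 in full-length arrays. Here and below, values are in the order animal 1, then arrays 1, 2 and 3 of animal 2. Of 8 stromal and endothelial markers, Col1a1, Col3a1 and Cdh5 lay at or below 4.25 on every array, under the median of all values (4.75). Col1a2 (5.02 to 5.67), Kdr (5.23 to 6.09) and Sparc (5.03 to 5.55) lay above 4.75 on every array. Dcn was at 4.56 to 5.29 in truncated arrays and at 8.94, 8.47, 4.79 and 4.93 in full-length arrays. Pecam1 had 6.62, 6.83, 5.03 and 5.21 in truncated arrays and 4.09, 4.43, 5.02 and 5.03 in full-length arrays. The erythroid list, with 18 of 20 genes measured, had a median of 9.46, 9.55, 8.45 and 8.48 in truncated arrays and 10.73, 10.36, 8.62 and 8.64 in full-length arrays. Primary granule genes, which mark promyelocytes, had a list median (6 of 8 measured) of 11.47 to 11.79 in truncated arrays, against 5.34, 4.81, 10.43 and 10.43 in full-length arrays. In full-length mice, animal 1 and array 1 of animal 2 were therefore high in erythroid and low in granule genes. These are called the erythroid-rich full-length arrays below, although other lists moved with them. The mast cell and basophil list (5 of 6 measured) had a median of 9.48, 9.78, 7.29 and 7.24 in truncated arrays and 5.29, 5.21, 11.45 and 11.50 in full-length arrays. Not all its genes shared this change. In full-length arrays Cpa3 was at 7.11, 6.90, 11.84 and 11.91, and Mcpt8 at 4.25, 4.23, 5.78 and 5.78. Fcer1a was at 5.29, 5.21, 12.39 and 12.47, but Ms4a2 stayed at 11.29 to 11.50 and Tpsb2 at 4.56 to 5.33. The plasma cell list had 7 of 8 genes measured, and its medians are over the 5 that passed the filter on dim genes. They were 5.29, 5.34, 9.19 and 9.18 in truncated arrays and 5.16 to 6.43 in full-length arrays. The jump among truncated arrays came with a change of the middle gene, to Edem1 in arrays 2 and 3 of animal 2. In truncated arrays Jchain was at 3.56, 3.32, 10.85 and 10.81 and Mzb1 at 5.29, 5.34, 7.02 and 7.05. The other genes moved less there: Edem1 was at 8.43, 9.01, 9.19 and 9.18, Xbp1 at 10.58 to 11.02 and Sdc1 at 4.81 to 5.78. Left out of the medians were Prdm1 (3.99 to 4.41 in truncated arrays) and Irf4 (4.10, 4.32, 5.57 and 5.53). The truncated animals therefore split by array as well. Where a result rests on the erythroid-rich arrays, the difference within arrays 2 and 3 of animal 2 of both genotypes is given beside it and called the matched difference, with 1 animal per genotype and no test. These arrays are matched by number alone, and their markers still differed. Fcer1a was at 7.29 and 7.24 in truncated and 12.39 and 12.47 in full-length arrays, and Jchain at 10.85 and 10.81 against 6.17 and 6.43. A matched difference is therefore not a genotype difference with cell type removed. In spleen tissue, fewer cells of a type and less RNA per cell cannot be told apart.

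Few of the genes separated the genotypes. The pentose phosphate enzyme Pgd and the glycolytic regulator Pfkfb4 were about 2-fold higher with the truncated fusion in every array. Most of the other members varied more among the full-length arrays than between the genotypes, as did 77.9% of all genes tested. The glucose transporter gene Slc2a1, the hexokinase genes Hk1 and Hk2 and the lactate carrier genes Slc16a1 and Slc16a3 were highest in the 2 erythroid-rich full-length arrays, whereas Slc2a3 and Hk3 were not. All 33 members passed the filter on dim genes. A total of 11 had a higher and 22 a lower mean in truncated animals, with a median log2 difference (truncated minus full-length) of -0.13, and -0.01 over the 11417 genes tested. At an adjusted p under 0.05 in limma, 0 members and 0.0% of all genes passed. At an unadjusted p under 0.05 there were 4 of 33 members (Egln3, Pfkfb4 and Pgd higher, Ankrd37 lower), against 14.1% of all genes (8.81% higher and 5.29% lower), so the members' share of 12.1% was no larger than the background. A difference over 1 on the log2 scale, in either direction, was seen for 4 members (12.1%), against 10.2% of all genes. For 4 members every truncated array lay above every full-length array (Pgd, Pfkfb4, Hk3 and Ldhb), which is again 12.1% of the members, against 19.0% of all genes in either direction and 10.3% in this direction.

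**Figure D1:**
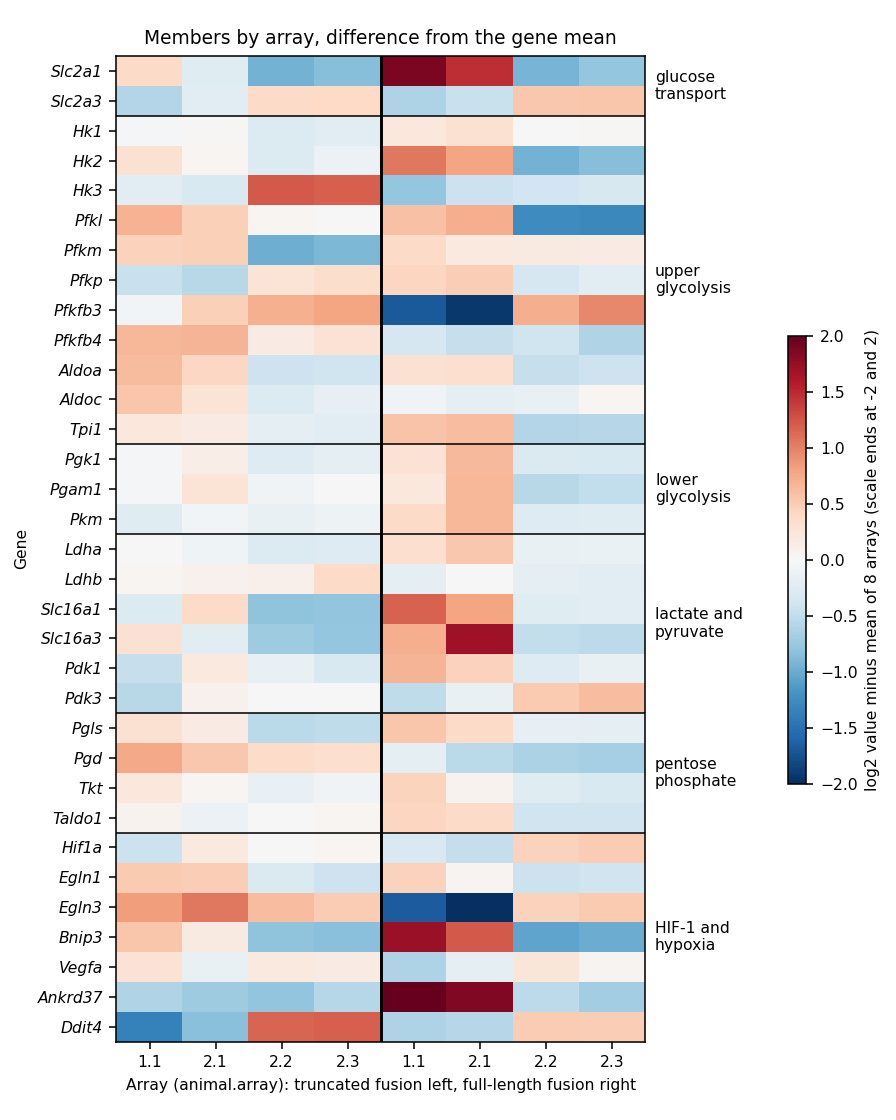
Log2 expression of the 33 tested members in each array (columns, animal and array number, truncated left of full-length), as the difference from the gene's mean over the 8 arrays. Rows are grouped by role; Pgd and Pfkfb4 are above their mean in all truncated arrays and below it in all full-length arrays, while most strong colours sit in full-length arrays 1.1 and 2.1.

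The spread within a genotype was compared with the difference between them. For 27 of the 33 members the range over the 4 full-length arrays exceeded the difference between the genotype means, which also held for 77.9% of all genes tested. Only Pfkfb4 and Pgd among the members had a range below that difference in both genotypes, against 12.7% of all genes. The median range of a member was 0.63 in truncated and 0.95 in full-length arrays on the log2 scale. Over all genes tested it was 0.44 in truncated and 0.55 in full-length arrays.

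In the pentose phosphate pathway, Pgd (6-phosphogluconate dehydrogenase, which makes NADPH and ribulose 5-phosphate) had log2 expression of 10.76, 10.55, 10.38 and 10.35 in truncated arrays, against 9.84, 9.47, 9.38 and 9.35 in full-length arrays. All truncated arrays lay above all full-length arrays. The means were 10.60 ± 0.24 in truncated and 9.62 ± 0.31 in full-length animals (SD, n = 2 animals each). The difference was 0.98 (SE 0.27), or 1.97-fold, and did not pass over all genes (limma, adjusted p = 0.214). A fit on 8 arrays with the animal and array number as a block (the replicate block) gave a difference of 1.01, which passed (limma, adjusted p = 0.0101). It counts the 3 arrays of an animal as separate samples, and the labels do not pair mice of the genotypes. With the animal as a random block Pgd passed too (limma, adjusted p = 0.03). That fit also uses all 8 arrays. It sets a common correlation (0.31) for arrays of an animal, though array 1 of animal 2 stood closer to animal 1. The matched difference was 1.01. All 4 probe sets of Pgd had arrays that did not overlap, with differences of 0.80 to 1.02. Of these, 3 end in x_at and can match related sequences, and the remaining one differed by 0.94.

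The other enzymes of the pathway did not share this pattern. Tkt (transketolase) averaged 12.53 ± 0.19 in truncated and 12.60 ± 0.43 in full-length animals, and Taldo1 (transaldolase) 10.96 ± 0.07 in truncated and 11.08 ± 0.41 in full-length animals. Pgls (6-phosphogluconolactonase, the step before Pgd) averaged 9.56 ± 0.42 in truncated and 9.84 ± 0.38 in full-length animals, and Pgls and Taldo1 were both highest in the erythroid-rich full-length arrays. The adjusted p of these 3 genes was 0.797 or more in limma. Of 10 other genes of the pathway that had been listed, 6 passed the filter, with 3 higher and 3 lower, and 0 passed the test. The ribokinase gene Rbks had the largest difference among them, with 7.05, 7.03, 6.83 and 6.82 in truncated arrays, against 6.48, 6.63, 6.13 and 6.19 in full-length arrays. Its arrays did not overlap (difference 0.57, limma, adjusted p = 0.343), and it passed with the replicate block (0.58, limma, adjusted p = 0.0361) but not with the animal as a random block (limma, adjusted p = 0.168). Prps2, which makes phosphoribosyl pyrophosphate from ribose 5-phosphate, differed by -0.40 with overlapping arrays.

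**Figure D2:**
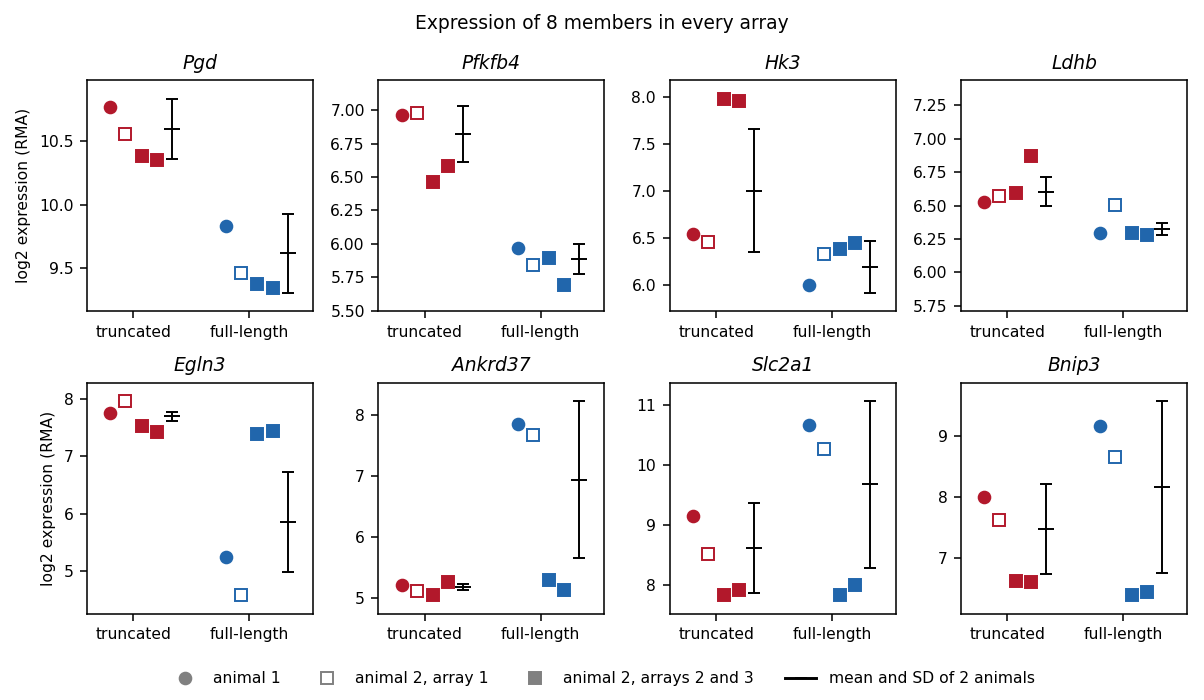
Log2 expression of 8 members in every array, truncated left of full-length in each panel, with the mean and SD of the 2 animals in black. Circles are animal 1, open squares array 1 of animal 2, and filled squares its arrays 2 and 3; Pgd, Pfkfb4, Hk3 and Ldhb do not overlap between the genotypes, while Egln3, Ankrd37, Slc2a1 and Bnip3 split the full-length arrays into 2 pairs.

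Pfkfb4 and Pfkfb3 encode bifunctional enzymes that set the level of fructose 2,6-bisphosphate, the activator of phosphofructokinase. Pfkfb4 had log2 expression of 6.97, 6.98, 6.46 and 6.58 in truncated arrays, against 5.97, 5.84, 5.89 and 5.69 in full-length arrays. The lowest truncated array lay above the highest full-length array. It averaged 6.82 ± 0.21 in truncated and 5.89 ± 0.11 in full-length animals (SD, n = 2 animals each), a difference of 0.93 (SE 0.23), or 1.91-fold (limma, adjusted p = 0.184). With the replicate block it passed (0.90, limma, adjusted p = 0.0229), with the animal as a random block it did not (limma, adjusted p = 0.0506), and the matched difference was 0.73. A single probe set covers this gene.

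Pfkfb3 had another pattern, with 5.29, 5.83, 6.06 and 6.13 in truncated arrays, against 3.66, 3.41, 6.07 and 6.30 in full-length arrays. Only the 2 erythroid-rich full-length arrays were low, and both lay under the median of all values, where RMA draws values together. The difference was 1.19 (SE 0.58, limma, adjusted p = 0.458) and the matched difference -0.09.

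The hexokinases, which phosphorylate glucose on entry, differed in sign. Hk3, the isoenzyme typical of myeloid cells, had 6.54, 6.46, 7.99 and 7.96 in truncated arrays, against 5.99, 6.33, 6.38 and 6.44 in full-length arrays. The arrays did not overlap, but array 1 of truncated animal 2 exceeded array 3 of full-length animal 2 by little. The high values were arrays 2 and 3 of truncated animal 2. Markers of several cell types were also high there, such as Jchain, Elane (9.36, 9.30, 11.62 and 11.70 in truncated arrays) and Kit (6.63, 7.62, 9.92 and 9.96). Others were not: Mpo lay between 11.92 and 12.29, and Csf1r was lower there (11.36, 11.22, 10.28 and 10.28). A link of Hk3 to any of these was not tested. The difference was 0.82 (SE 0.38, limma, adjusted p = 0.432). Its other probe set differed by 1.25 with overlapping arrays. Hk1, the ubiquitous isoenzyme, averaged 10.18 ± 0.08 in truncated and 10.44 ± 0.07 in full-length animals (difference -0.26, SE 0.22, limma, adjusted p = 0.700). Its second probe set had a difference of -0.63 and arrays that did not overlap. The insulin- and HIF-responsive Hk2 averaged 7.72 ± 0.30 in truncated and 7.99 ± 0.98 in full-length animals. Its difference was -0.27 and its matched difference 0.69.

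Among the phosphofructokinase subunits, which form the committed step of glycolysis, Pfkl (liver type) had a difference of 0.44 (SE 0.46). It lay between 7.75 and 8.44 in truncated arrays and at 8.33, 8.47, 6.49 and 6.45 in full-length arrays. Full-length arrays 2 and 3 of animal 2 were the low ones, and the matched difference was 1.29. A further probe set of Pfkl had the opposite sign, at -0.19. Pfkm (muscle type) was low in arrays 2 and 3 of truncated animal 2, at 6.57 and 6.64, and between 8.0 and 8.02 in the other truncated arrays and between 7.69 and 7.92 in full-length arrays. Pfkp (platelet type) averaged 9.39 ± 0.33 in truncated and 9.80 ± 0.32 in full-length animals. For these 3 genes the adjusted p in limma lay between 0.636 and 0.822.

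The aldolases and the enzymes after them had differences below 0.4 on the log2 scale. Aldoa and the brain-type aldolase Aldoc had differences of 0.19 and 0.34, and 1 of the 5 Aldoa probe sets had the opposite sign. Tpi1 (triose phosphate isomerase) averaged 10.72 ± 0.21 in truncated and 10.86 ± 0.53 in full-length animals. Gapdh, by its 3 control probe sets, lay between 12.36 and 13.04 in truncated arrays and between 12.67 and 12.95 in full-length arrays, and the sets differed by -0.11 to -0.06 between the genotypes. Its 3′ probe set minus its 5′ probe set, a measure of RNA integrity and labelling, ran from -0.19 to 0.28 in truncated and from -0.19 to 0.05 in full-length arrays. For beta-actin the same measure was 1.02, 0.46, 0.55 and 0.58 in truncated and 0.81, 0.38, 0.33 and 0.36 in full-length arrays. It was highest in animal 1 of both genotypes. Pgk1, Pgam1 and Pkm (phosphoglycerate kinase, phosphoglycerate mutase and the pyruvate kinase of blood progenitors and most tissues) differed by -0.23, -0.02 and -0.39, none with an adjusted p under 0.569 in limma. For Pgk1 and Pkm the erythroid-rich full-length arrays were the 2 highest of the 8, at 11.67 and 12.03 for Pgk1. The matched differences of Tpi1, Pgk1, Pgam1 and Pkm were 0.37, 0.08, 0.48 and 0.13.

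The glucose transporters differed in pattern. Slc2a1 (GLUT1, the transporter of red cell precursors and a HIF-1 target) had 9.15, 8.52, 7.83 and 7.92 in truncated arrays, against 10.66, 10.25, 7.84 and 8.0 in full-length arrays. The erythroid-rich full-length arrays were the highest, the other full-length arrays lay among the truncated ones, and the groups overlapped. The means were 8.62 ± 0.75 in truncated and 9.68 ± 1.38 in full-length animals, a difference of -1.05 (SE 0.72, limma, adjusted p = 0.618). The matched difference was -0.04, against -1.62 within the arrays of animal 1 and array 1 of animal 2. All 3 probe sets had differences between -1.20 and -1.05. Slc2a3 (GLUT3) averaged 10.87 ± 0.55 in truncated and 10.88 ± 0.59 in full-length animals, and in both genotypes was lowest in animal 1 and in array 1 of animal 2.

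In the lactate and pyruvate branch, the 2 lactate dehydrogenase subunits differed in sign. Ldhb, the heart-type subunit, had 6.53, 6.57, 6.60 and 6.87 in truncated arrays, against 6.30, 6.50, 6.29 and 6.28 in full-length arrays. The groups did not overlap, though the gap between them was small (difference 0.28, SE 0.22, limma, adjusted p = 0.673). All 4 of its probe sets had arrays that did not overlap, with differences up to 1.39, but the other 3 lay mostly under the median of all values. Ldha, the muscle-type subunit, averaged 11.37 ± 0.15 in truncated and 11.68 ± 0.17 in full-length animals, with a difference of -0.31 and a matched difference of -0.12.

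Slc16a1 (MCT1, a lactate and pyruvate carrier) had 8.74, 9.40, 8.21 and 8.22 in truncated arrays, against 10.19, 9.81, 8.77 and 8.79 in full-length arrays. The groups overlapped through array 1 of truncated animal 2. Its difference was -0.98 (SE 0.39, limma, adjusted p = 0.362), and the matched difference -0.57. Slc16a3 (MCT4, the lactate exporter of glycolytic cells) had 7.78, 7.26, 6.76 and 6.70 in truncated arrays, against 8.20, 9.17, 6.98 and 6.95 in full-length arrays. The groups overlapped, with a difference of -0.61 and a matched difference of -0.24. Pdk1, which switches off pyruvate dehydrogenase, had 7.39, 8.03, 7.69 and 7.53 in truncated arrays, against 8.53, 8.31, 7.58 and 7.70 in full-length arrays, with a difference of -0.63 and a matched difference of -0.03. Pdk3, a kinase of the same family, averaged 8.80 ± 0.41 in truncated and 8.97 ± 0.59 in full-length animals. The erythroid-rich arrays were the 2 highest for 4 of the 6 genes of this branch.

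Of 21 other pyruvate and lactate genes, 15 passed the filter, with 6 higher and 9 lower, and 0 passed the test. Pcx (pyruvate carboxylase) had 4.26, 4.31, 4.31 and 4.84 in truncated arrays, against 5.51, 5.49, 5.21 and 5.35 in full-length arrays. All truncated values but that of array 3 of animal 2 lay under the median of all values (4.75), where RMA draws values together. Pck2, the mitochondrial enzyme that makes phosphoenolpyruvate from oxaloacetate, had 8.4, 8.78, 8.48 and 8.54 in truncated arrays, against 7.69, 7.80, 7.58 and 7.67 in full-length arrays. Neither gene's arrays overlapped between the genotypes. Their differences were -1.06 for Pcx (limma, adjusted p = 0.141) and 0.82 for Pck2 (limma, adjusted p = 0.202). Both passed with the replicate block (limma, adjusted p = 0.0298 and 0.0154) and with the animal as a random block (limma, adjusted p = 0.0442 and 0.03). The limits given for these fits at Pgd hold here too. The matched differences were -0.71 and 0.89. Of 29 other glycolysis and hexose genes, 20 passed the filter, with 12 higher and 8 lower, and 0 passed the test. Bpgm, the red cell enzyme that makes 2,3-bisphosphoglycerate, had values between 7.80 and 8.15 in truncated arrays and of 10.34, 10.63, 7.88 and 8.0 in full-length arrays. Minpp1, an inositol phosphate phosphatase that also acts on 2,3-bisphosphoglycerate, lay between 7.24 and 8.34 in truncated and at 10.10, 9.59, 8.37 and 8.38 in full-length arrays. Its difference of -1.51 passed with the replicate block (-1.30, limma, adjusted p = 0.0253) but not with the animal as a random block (limma, adjusted p = 0.273), and its matched difference was -1.01. Bpgm had a difference of -1.56 and a matched difference of -0.04.

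**Figure D3:**
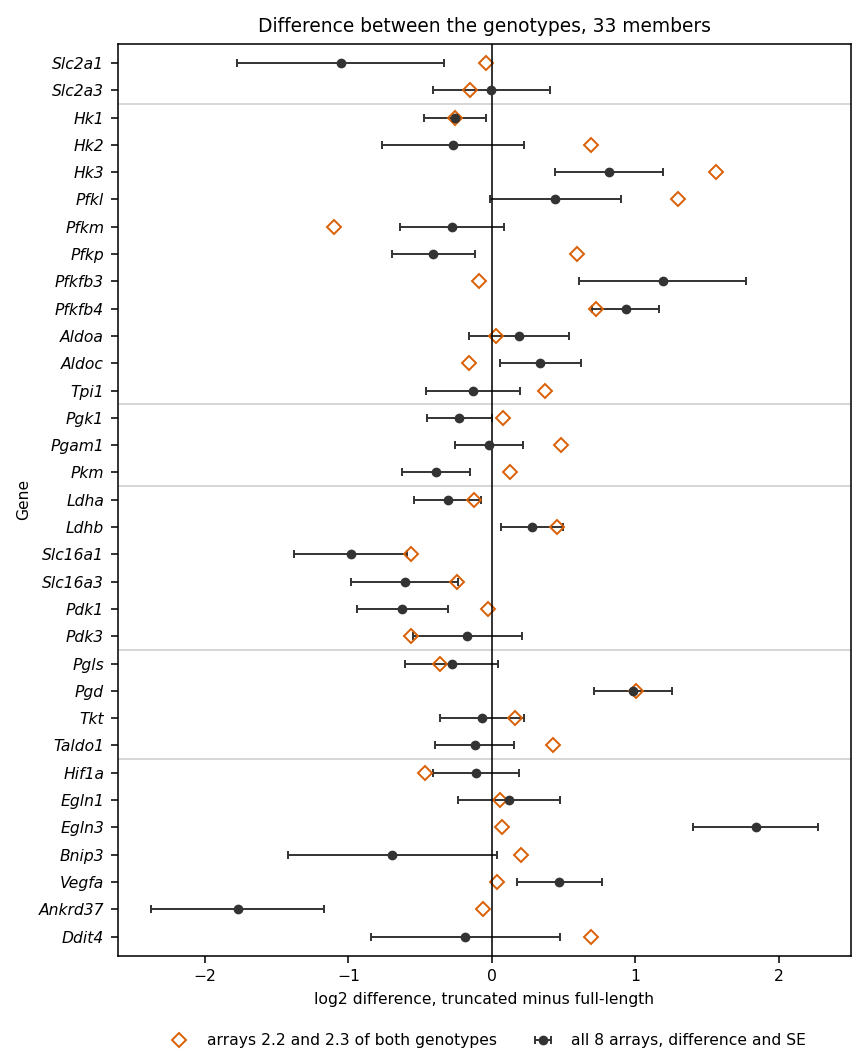
Log2 difference (truncated minus full-length) of the 33 members by role. Filled points with SE are from all 8 arrays averaged to 2 animals per genotype, and open diamonds are the matched difference within arrays 2 and 3 of animal 2; Pgd (1.01) and Pfkfb4 (0.73) are positive in both, whereas Egln3 (0.07), Ankrd37 (-0.06) and Slc2a1 (-0.04) lie near 0 in the matched arrays.

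The HIF-1 pathway and its targets held the largest differences among the members, and these lay in the 2 erythroid-rich full-length arrays. Hif1a, the oxygen-regulated subunit, averaged 8.56 ± 0.36 in truncated and 8.67 ± 0.33 in full-length animals (difference -0.11, SE 0.30, limma, adjusted p = 0.926), and 2 of its 4 probe sets had the opposite sign. HIF-1alpha is mainly regulated as a protein, which these arrays do not measure. Egln1, the main oxygen-sensing hydroxylase, averaged 7.23 ± 0.42 in truncated and 7.11 ± 0.50 in full-length animals. Egln3, the hydroxylase that HIF itself induces, had 7.74, 7.96, 7.53 and 7.42 in truncated arrays, against 5.24, 4.58, 7.38 and 7.43 in full-length arrays. The 2 erythroid-rich arrays were low, and the other full-length arrays lay near the lowest truncated value. The difference was 1.84 (SE 0.43), or 3.57-fold (limma, adjusted p = 0.167), and the matched difference was 0.07. It passed without array 2 or without array 3 of full-length animal 2 (limma, adjusted p = 0.0356 and 0.0253), fits that called 297 and 380 genes higher. Leaving out either array shifts the mean of that animal towards its low array 1. The second probe set of Egln3 differed by 1.17.

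Ankrd37, a HIF-1 target, ran the other way, with 5.21, 5.12, 5.04 and 5.25 in truncated arrays, against 7.86, 7.68, 5.29 and 5.12 in full-length arrays. The 2 erythroid-rich arrays stood far above the other 6. The difference of -1.77 (SE 0.60, limma, adjusted p = 0.289) stood beside a matched difference of -0.06. Bnip3, a HIF-1 target that directs mitochondria to autophagy, had 7.99, 7.61, 6.62 and 6.60 in truncated arrays, against 9.16, 8.66, 6.38 and 6.44 in full-length arrays. The groups overlapped, and the difference of -0.69 (SE 0.73, limma, adjusted p = 0.773) stood beside a matched difference of 0.20. Vegfa, the vascular growth factor, had 6.05, 5.62, 5.96 and 5.93 in truncated arrays, against 5.15, 5.58, 6.0 and 5.81 in full-length arrays, with a difference of 0.47 and a matched difference of 0.04. Ddit4 (REDD1, an mTORC1 inhibitor induced by hypoxia and other stress) had the widest range among truncated arrays of any member. Its values were 8.42, 8.93, 10.94 and 10.97, against 9.15, 9.20, 10.27 and 10.26 in full-length arrays. Among truncated arrays Ddit4 was high in arrays 2 and 3 of animal 2, as were Jchain, Elane and Kit, a link that was not tested. HIF-1 targets thus differed in sign within the same arrays: Ankrd37, Bnip3, Slc2a1 and Pdk1 were highest, and Egln3, Pfkfb3 and Vegfa lowest, in the 2 erythroid-rich arrays.

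Of 14 other HIF pathway genes, 10 passed the filter, with 4 higher and 6 lower, and 0 passed the test. The cullin complex subunits Rbx1 (-0.36) and Cul2 (-0.29) had the largest differences. Of 35 other hypoxia targets, 26 passed the filter, with 12 higher and 14 lower, and 0 passed the test. Gadd45b, a stress-induced regulator of growth arrest, had 8.36, 8.35, 9.16 and 9.10 in truncated arrays, against 6.26, 5.91, 7.23 and 7.28 in full-length arrays. Its arrays did not overlap, and the difference was 2.08 (SE 0.31, limma, adjusted p = 0.0820). With the replicate block it passed (2.07, limma, adjusted p = 0.00668). It also passed without array 2 or array 3 of full-length animal 2 (limma, adjusted p = 0.0265 and 0.0188), fits that called 297 and 380 genes higher. It did not pass with the animal as a random block (limma, adjusted p = 0.0699), and the matched difference was 1.87. Plod2, a collagen lysyl hydroxylase, had 4.51, 3.92, 6.92 and 6.95 in truncated arrays, against 7.84, 7.73, 5.69 and 5.43 in full-length arrays, with a difference of -1.84 and a matched difference of 1.38.

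HIF-1 binds DNA at a core of ACGTG or GCGTG. The promoters below are examples: Pfkfb4, whose arrays separated the genotypes, and 4 HIF-1 targets that split the full-length arrays in opposite directions. Each is the 250 bases before the annotated start, from RefSeq on build GRCm38.p6, written 5′ to 3′ on the gene's strand, with matches to the core on either strand in capitals (CACGT and CACGC on the strand shown are matches on the other strand, and matches may overlap). The Pfkfb4 window is at chr9:108991652-108991901 on the plus strand, Egln3 at chr12:54203875-54204124 on the minus strand and Ankrd37 at chr8:45999851-46000100 on the minus strand. Bnip3 is at chr7:138909507-138909756 on the minus strand and Slc2a1 at chr4:119108495-119108744 on the plus strand.
Pfkfb4: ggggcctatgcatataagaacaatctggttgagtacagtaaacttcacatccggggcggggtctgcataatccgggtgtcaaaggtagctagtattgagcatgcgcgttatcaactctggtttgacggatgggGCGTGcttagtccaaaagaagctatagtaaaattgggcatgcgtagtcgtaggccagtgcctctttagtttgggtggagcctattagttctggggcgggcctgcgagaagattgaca
Egln3: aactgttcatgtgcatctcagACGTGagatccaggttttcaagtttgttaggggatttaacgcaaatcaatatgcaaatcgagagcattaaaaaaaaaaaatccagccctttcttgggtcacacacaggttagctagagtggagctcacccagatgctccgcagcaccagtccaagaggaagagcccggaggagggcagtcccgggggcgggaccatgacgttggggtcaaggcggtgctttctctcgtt
Ankrd37: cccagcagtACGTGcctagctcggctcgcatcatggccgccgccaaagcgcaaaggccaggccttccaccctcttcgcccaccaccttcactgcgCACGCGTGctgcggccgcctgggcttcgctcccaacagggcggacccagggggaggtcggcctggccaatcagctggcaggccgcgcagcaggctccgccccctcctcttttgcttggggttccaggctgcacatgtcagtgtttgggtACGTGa
Bnip3: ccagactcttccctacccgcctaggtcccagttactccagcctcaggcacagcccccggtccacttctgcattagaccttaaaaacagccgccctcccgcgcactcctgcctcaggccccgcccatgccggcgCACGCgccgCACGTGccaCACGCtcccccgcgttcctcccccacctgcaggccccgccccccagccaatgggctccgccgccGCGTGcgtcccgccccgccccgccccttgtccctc
Slc2a1: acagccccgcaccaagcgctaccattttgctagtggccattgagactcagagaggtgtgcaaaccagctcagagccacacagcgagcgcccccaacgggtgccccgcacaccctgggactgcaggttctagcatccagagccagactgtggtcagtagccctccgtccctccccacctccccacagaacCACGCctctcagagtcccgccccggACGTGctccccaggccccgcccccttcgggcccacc

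Pfkfb4 and Egln3 had 1 match each, Slc2a1 had 2, Ankrd37 had 4 and Bnip3 had 5. In Bnip3 a pair of these form the palindrome CACGTG, which is read as a match on both strands. Promoters were found for 36 of the 38 members, with 51 windows, since some genes have several starts. A match was present in 42 of the 51 windows (82.4%), against 38.6% of all 32851 windows of the same length. The member windows had a median G and C content of 60.4%, against 52.4% for all windows, and a median of 14 CpG dinucleotides, against 6. The part of base composition in the share of matches was not tested. Ankrd37 and Bnip3, highest in the erythroid-rich arrays, and Egln3, lowest there, all held matches.

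**Figure D4:**
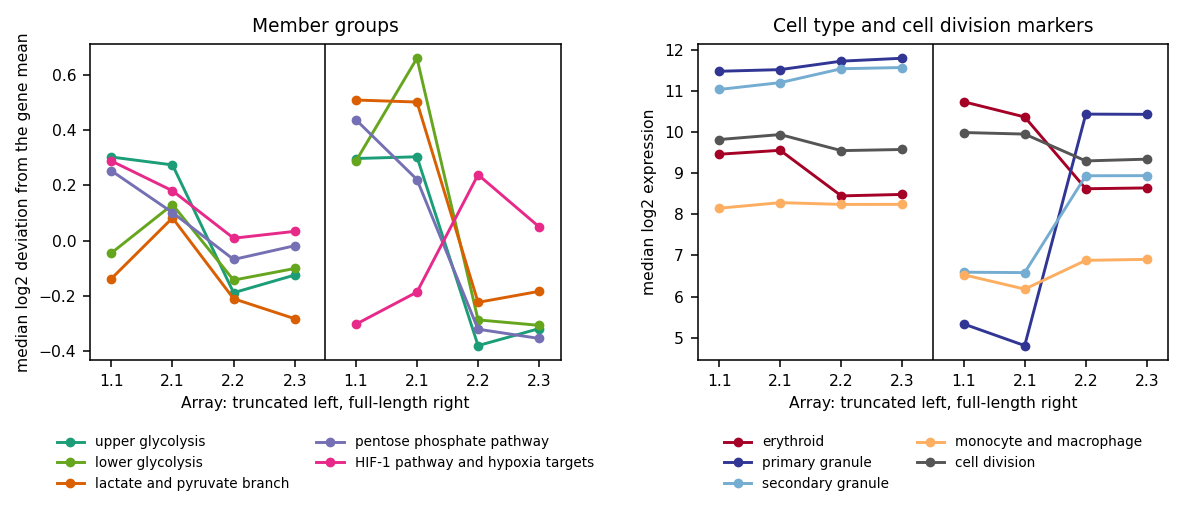
Left, the median deviation from the gene mean (log2) of 5 groups of members in each array, and right, the median log2 expression of marker lists in the same arrays, truncated left of full-length in both panels. In full-length arrays 1.1 and 2.1 the glycolysis, lactate and pentose phosphate groups, erythroid and cell division genes are high and granule genes are low.

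The array pattern was summarised over the members. The erythroid-rich full-length arrays were the 2 highest of the 8 arrays for 15 of 33 members (45.5%), against 18.0% of all genes, and the 2 lowest for 4 members (Hk3, Pfkfb3, Egln3 and Vegfa), against 16.9%. The arrays with these numbers (animal 1, and array 1 of animal 2) were higher than arrays 2 and 3 of animal 2 in both genotypes for 20 members, against 31.1% of all genes, and lower in both for 7 members (Slc2a3, Hk3, Pfkfb3, Pdk3, Hif1a, Vegfa and Ddit4), against 28.3%. The median member deviated from its own mean by 0.07, 0.13, -0.14 and -0.10 in truncated arrays, and by 0.33, 0.34, -0.26 and -0.24 in full-length arrays. Over all genes tested these medians lay between -0.03 and 0.02.

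The erythroid list was highest in the same arrays, with medians given above. So was the cell division list (11 of 12 measured), at 9.82, 9.94, 9.55 and 9.57 in truncated arrays and 9.99, 9.95, 9.30 and 9.34 in full-length arrays. Secondary granule genes (9 of 10 measured) lay between 11.03 and 11.56 in truncated arrays and at 6.59, 6.58, 8.94 and 8.94 in full-length arrays. Monocyte and macrophage genes (10 of 12 measured) lay between 8.15 and 8.28 in truncated and between 6.18 and 6.91 in full-length arrays. The medians of the granule and monocyte lists, like the values of Pgd and Pfkfb4, did not overlap between the genotypes. The part of these cell types in the values of the members was not tested. Within animal 1 and array 1 of animal 2, 14 members were higher and 19 lower in truncated mice, with a median difference of -0.23. Within arrays 2 and 3 of animal 2, 19 were higher and 14 lower, with a median of 0.05, and 12 members had the opposite sign to that over all arrays, against 31.0% of all genes. The 2 sets of arrays gave the same sign for 16 of 33 members, against 57.4% of all genes.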

How the data were processed

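Affymetrix mouse arrays measured total RNA of leukemic spleen cells, per the labels' protocols. The authors deposited 1 table of 45101 probe sets by 8 arrays, read here as log2 values from their range. The submitters' processing notes name RMA, a background, quantile and probe-summary method that draws dim values together. Array medians lay between 4.71 and 4.78. Detection calls were not used here, and the number of arrays limits the precision.

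Gene names came from the platform annotation. Of the probe sets, 34945 had 1 symbol, 932 had several and 9160 had none, and 64 were controls. Gene identifiers of 18032 of 18193 genes were found in the RefSeq table of GRCm38.p6. For 5 members the probe set used ends in x_at or s_at. Probe sets of 1 gene disagreed in sign for Aldoa, Hif1a, Pfkl, Slc2a3 and Tkt.

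Arrays were averaged within animal, and genes entered the fit with 2 or more animals above the median of all values (4.75). Genotypes were compared in limma 3.58.1 (lmFit, eBayes; R 4.3.3; 2 residual and 3.24 prior degrees of freedom), with Benjamini-Hochberg adjustment over 11417 genes. The fit was also run on simulated data with independent animals. That run cannot test the grouping of arrays by animal, because the real arrays do not group by the labelled animals. An exact permutation test of 2 against 2 animals cannot reach 0.05, so none was run. Members, lists and tests were chosen with earlier results of these data known. All members are named. Values per array are given for members whose arrays do not overlap, those with an unadjusted p under 0.05 and the 12 with the largest differences, with a few others added after their values were seen. From each list of other pathway genes the 2 with the largest differences are named.

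Same-numbered arrays of the genotypes deviated together from their genotype means (correlations over genes of 0.30, 0.16, 0.24 and 0.22 for the 4 numbers). So did arrays of unlike numbers, at 0.16 and 0.14 across 1.1 and 2.1, and 0.23 and 0.24 across 2.2 and 2.3. The values thus show sets of arrays (1.1 with 2.1, and 2.2 with 2.3) rather than pairs by number. A fit with the replicate block was also made, although the labels pair no mice.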

Additional observations from a re-analysis of the deposited data

Results flagged for a closer look

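In 66 groups of 4 arrays (33 members in 2 genotypes), 4 arrays stood farther from the rest of their group than Dixon's critical value allows, and chance gives about 1 in 20 groups. Pgam1 was at 10.90 in array 1 of truncated animal 2, and Pdk3 at 8.51 in the array of truncated animal 1. Pfkm was at 7.92 in the array of full-length animal 1, and Ldhb at 6.50 in array 1 of full-length animal 2. Arrays 2 and 3 of an animal lie close together, so the groups are not made of independent samples.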

How the results depend on the processing

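In the fits tried, 10 of the 33 members kept their direction under all 21 alternatives (Pgd, Pfkfb4, Hk1, Hk3, Ldhb, Slc16a1, Pdk1, Egln3, Vegfa and Ankrd37), and the depth of evidence is limited by 2 animals per genotype. A kept sign can hide a difference near 0. The difference nearest to 0 was 0.07 for Egln3, -0.03 for Ankrd37, -0.03 for Pdk1 and 0.04 for Vegfa, against 0.76 for Pgd and 0.73 for Pfkfb4. The share of all genes that kept their direction is not given. Leaving out 1 array in turn, the count of genes called was 0 to 380 higher and 0 to 48 lower, with the most without array 2 (297 and 41) or array 3 (380 and 48) of full-length animal 2. Members called were 0 to 1, members at an unadjusted p under 0.05 were 2 to 7, and the members' median difference was -0.18 to 0.15, reversed without the array of full-length animal 1 (0.15). Genes called higher and lower were 448 and 218 without full-length animal 2, 264 and 81 with the animal as a random block, 590 and 356 with the replicate block, and 1659 and 1350 with array 1 of each animal alone, where the 2 arrays of a genotype are nearly alike and the p-values too small. They were 2 and 1 with a robust prior that follows intensity, and 1 was lower with all 4 animals above the filter. Members called were 3, 1, 2 and 13 in the first 4 of these settings. Members at an unadjusted p under 0.05 were 11 without full-length animal 2, 2 with the random block and 16 with array 1 alone. The members' median was -0.31 without full-length animal 2 and reversed to 0.28 without the 2 erythroid-rich full-length arrays, a setting that leaves 1 full-length animal and keeps truncated arrays of the same numbers. It reversed to 0.0544 in the matched arrays. With the arrays grouped as they correlate, members at an unadjusted p under 0.05 were 2. The last 2 settings were chosen after seeing the data. The replicate block changed no other call of a member than those of Pgd and Pfkfb4.

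Without the array of truncated animal 1, the sign turned for the median of upper glycolysis (-0.18), the HIF-1 group (0.15), Aldoa (-0.19), Ddit4 (0.75), Egln1 (-0.17), Hif1a (0.15), Pdk3 (0.12), Pgam1 (0.0198) and Slc2a3 (0.39). Without full-length animal 2, the sign turned for the median of upper glycolysis (-0.16), the HIF-1 group (0.13), Aldoa (-0.0485), Ddit4 (0.20), Egln1 (-0.23), Hif1a (0.13), Pdk3 (0.25), Pfkl (-0.16) and Slc2a3 (0.41). With the mean of all probe sets, the sign turned for the median of upper glycolysis (-0.0187) and Hif1a (0.0344). Without the erythroid-rich full-length arrays alone, the sign turned for the median of lower glycolysis (0.22), the median of pentose phosphate genes (0.39), Bnip3 (1.06), Bpgm (0.09), Hk2 (0.98), Ldha (0.0395), Pfkfb3 (-0.54), Pfkp (0.0676), Pgam1 (0.55), Pgk1 (0.22), Pgls (0.17), Pkm (0.0768), Rbx1 (0.12), Slc16a3 (0.37), Slc2a1 (0.70), Taldo1 (0.43), Tkt (0.34) and Tpi1 (0.64). In the matched arrays, the sign turned for the median of lower glycolysis (0.13), the median of pentose phosphate genes (0.29), the HIF-1 group (0.0544), Aldoc (-0.16), Bnip3 (0.20), Ddit4 (0.69), Hk2 (0.69), Pfkfb3 (-0.0886), Pfkp (0.59), Pgam1 (0.48), Pgk1 (0.08), Pkm (0.13), Plod2 (1.38), Prps2 (0.28), Taldo1 (0.43), Tkt (0.16) and Tpi1 (0.37). Without the array of full-length animal 1, the sign turned for the median of pentose phosphate genes (0.20), the HIF-1 group (0.15), Bnip3 (0.31), Hk2 (0.42), Pgam1 (0.15), Taldo1 (0.17), Tkt (0.23) and Tpi1 (0.24). With the replicate block, the sign turned for the HIF-1 group (0.0908), Ddit4 (0.0908), Pgam1 (0.0858) and Tkt (0.0154). With array 1 of each animal alone, the sign turned for the HIF-1 group (0.25), Hif1a (0.27), Pdk3 (0.0942), Pfkl (-0.0747), Pfkm (0.19) and Slc2a3 (0.12). With the arrays grouped as they correlate, the sign turned for the HIF-1 group (0.0908), Ddit4 (0.0908), Pgam1 (0.0858) and Tkt (0.0154). Without array 1 of truncated animal 2, the sign turned for Ddit4 (0.15), Egln1 (-0.02) and Slc2a3 (0.0985). Without array 1 of full-length animal 2, the sign turned for Hk2 (0.0119), Pgam1 (0.18), Taldo1 (0.0099) and Tpi1 (0.0674). Without truncated animal 2, the sign turned for Pfkm (0.18), Pgls (0.0159), Tkt (0.0646) and Tpi1 (0.0151). Without array 2 of truncated animal 2, the sign turned for Pgam1 (0.0123). With the animal as a random block, the sign turned for Pgam1 (0.0435). Without array 2 of full-length animal 2, the sign turned for Slc2a3 (0.0755). Without array 3 of full-length animal 2, the sign turned for Slc2a3 (0.082). A group median that changed sign by less than the SD between animals of the members' median (0.15) is not listed. The cause of these reversals was not tested, beyond the smaller number of arrays.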
